A study of Homo sapiens with 6 samples.

Results

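The epithelial-mesenchymal transition (EMT) switch genes examined here are 10 genes, taken by symbol from the 27328 loci of a table of gene expression: CDH1, CDH2, VIM, TWIST1, ZEB1, SNAI2, GRHL2, OVOL1, ESRP1 and ESRP2. All 10 were found, each once, under an Ensembl identifier. They were read in 6 RNA-seq libraries of SACC-83, an established human cell line labelled as salivary adenoid cystic carcinoma. Libraries OE-1, OE-2 and OE-3 came from cells overexpressing circMYBL1, a circle of RNA made from the gene MYBL1, which encodes a transcription factor, and libraries Vec-1, Vec-2 and Vec-3 came from cells with an empty vector, labelled wild type. The genotype labels of the overexpression libraries run on as circMYBL1, circMYBL2 and circMYBL3, while the titles mark all 3 as overexpression and the design text names circMYBL1 alone, so they were kept as replicates. Whether libraries of a group stem from independent cultures is not said; the p-values therefore reflect only how far these libraries spread, and that spread could be technical. The design text gives the search for target genes as the aim.

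In an epithelial cell, E-cadherin (CDH1) joins neighbouring cells, and the factors GRHL2 and OVOL1 and the splicing regulators ESRP1 and ESRP2 maintain that state. In the transition to a mesenchymal state, the repressors SNAI2, ZEB1 and TWIST1 act against CDH1, while N-cadherin (CDH2) and the intermediate filament protein vimentin (VIM) increase. ZEB1 and the epithelial factors repress each other, which gives the program the character of a switch, and carcinoma cells can hold intermediate states with both sides expressed.

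Levels are deposited FPKM, that is fragments scaled for gene length and for the total mapped in a library, which allows levels of different genes to be set side by side. Read depth is unknown from these values. Summed FPKM lay between 379404 and 408826 in overexpression libraries and between 371776 and 393350 in vector libraries. MYBL1, from which the circle derives, read 359, 44.0 and 2025 FPKM in overexpression replicates 1, 2 and 3, against 9.04, 7.15 and 10.3 FPKM in vector replicates 1, 2 and 3; a gene-level value does not measure the circle. The 2 libraries numbered 2 stood apart from the other 4 on the first principal component (36.0 and 47.0 for overexpression and vector replicate 2, -28.6 to -11.8 for the others), which held 74.5% of the variance. They also had more loci at 1 FPKM or above, 12573 and 12577 against 11606 to 11958 in the others. The 13 mitochondrially encoded mRNAs took 8.43% and 10.2% of all FPKM in overexpression and vector replicate 2, and 5.64% to 8.76% in the others. The part of these library differences in the results below was not tested.

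Transcripts of both sides of the switch were present in each library, which in bulk RNA does not show that single cells held both, and 2 of the 4 epithelial regulators were listed at or near 0. VIM was the most abundant of the 10 genes, with a mean of 256 FPKM over the 6 libraries, above 98.4% of the genes tested. SNAI2 followed at 51.9 FPKM, then CDH1 at 14.4, CDH2 at 13.9, TWIST1 at 5.05, ESRP2 at 3.65, ESRP1 at 2.74 and ZEB1 at 1.13 FPKM. The ranges of VIM and SNAI2 over the 6 libraries overlapped with no other member's. The ranges of ESRP1 and ZEB1 overlapped, although ESRP1 was higher in each library, while the neighbours CDH1 and CDH2, TWIST1 and ESRP2, and ESRP2 and ESRP1 overlapped in range and changed places between libraries. GRHL2 (ENSG00000083307, chromosome 8, 101492432 to 101669726, plus strand), a Grainyhead factor that maintains epithelial gene expression, is listed at 0 in all 6 libraries. So are 3 of 82 ribosomal protein symbols, but which genes these are was not looked at, so they do not settle what a 0 means. Whether a 0 here is a true absence or a failed estimate is unknown. OVOL1 (ENSG00000172818, chromosome 11, 65787022 to 65797219, plus strand), a zinc finger repressor of mesenchymal genes, read 0.0203, 0.263 and 0.0386 FPKM in overexpression replicates 1, 2 and 3, against 0.0616, 0.0939 and 0.106 FPKM in vector replicates 1, 2 and 3. Neither gene reached 1 FPKM in any library, so neither entered the main tests, and 8 of the 10 members did. Their relatives were low as well: GRHL1 read 0.427 to 0.898 FPKM in overexpression libraries and 0.605 to 1.15 FPKM in vector libraries, and GRHL3 stayed below 1 FPKM throughout, whereas OVOL2 reached 1.24 to 2.05 FPKM in overexpression and 1.34 to 2.17 FPKM in vector libraries. These 3 genes were singled out as relatives of the members after their values were seen.

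**Figure D1:**
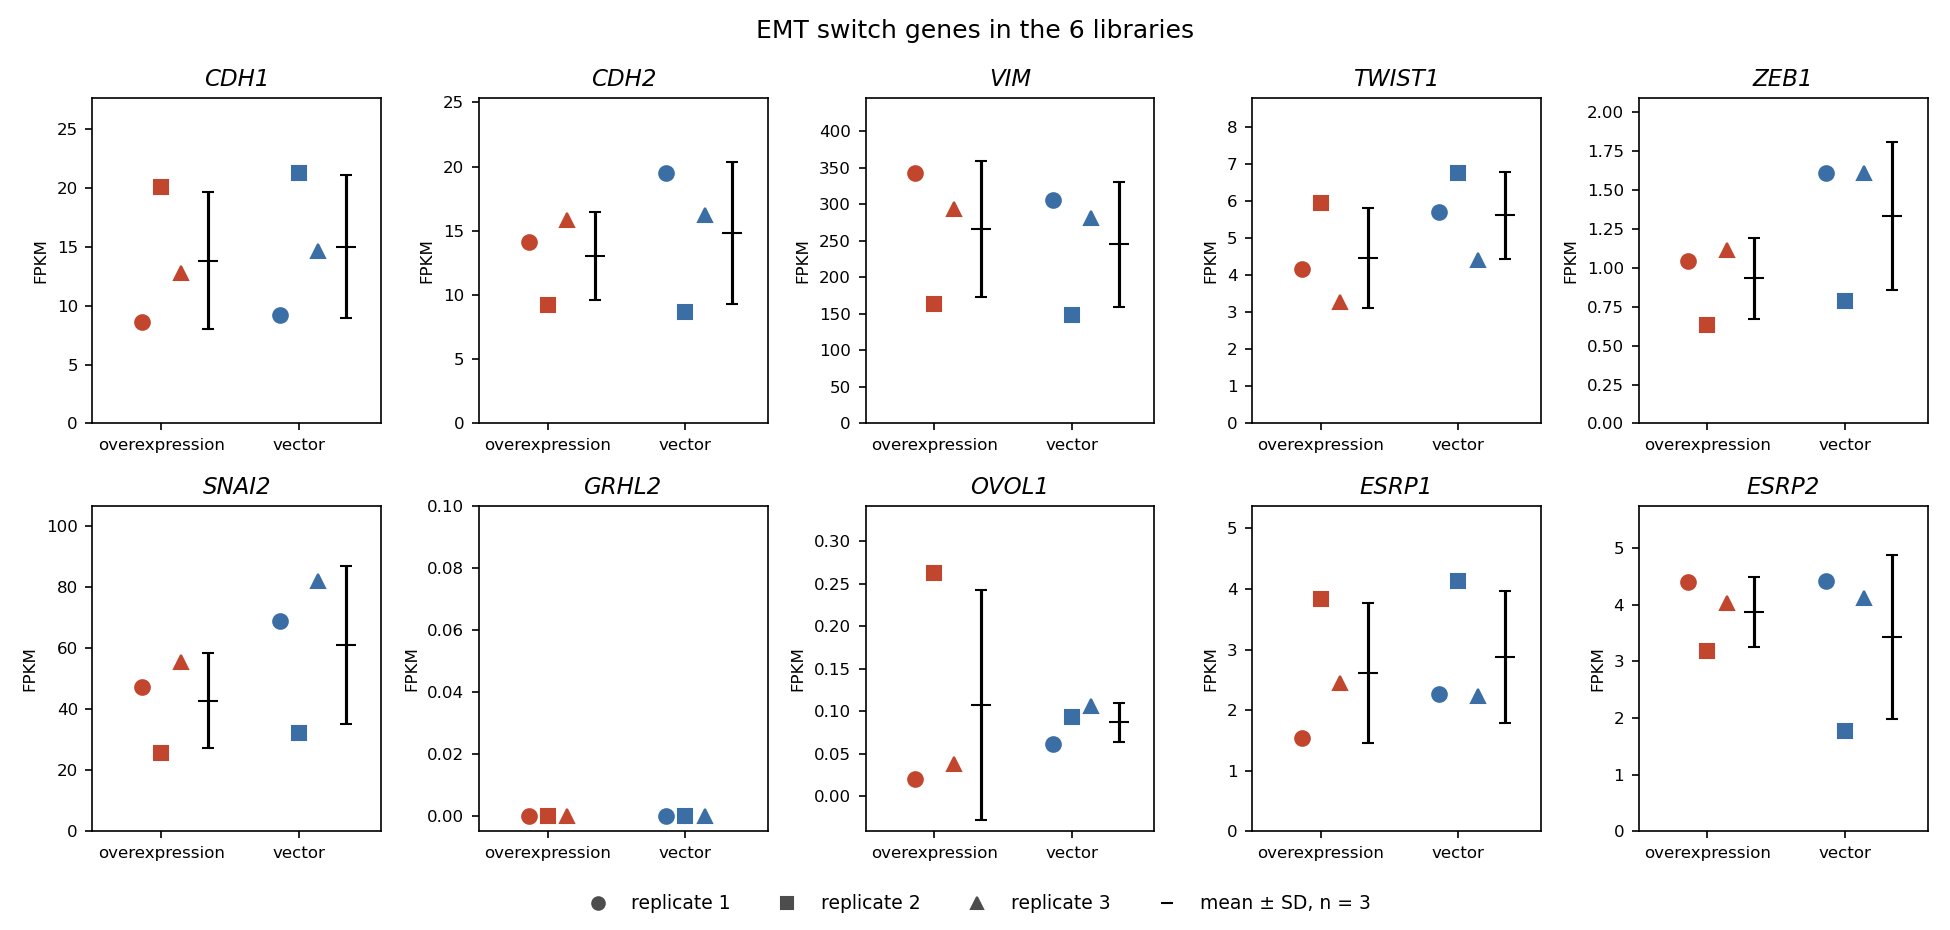
Deposited FPKM (vertical axis, one scale per gene) of the 10 EMT switch genes in overexpression and vector libraries; symbols mark replicates 1 to 3 and black bars give mean ± SD (n = 3), left out for GRHL2, which is listed at 0. The square of replicate 2 is the highest point of both groups for CDH1, TWIST1 and ESRP1 and the lowest of both groups for CDH2, VIM, ZEB1, SNAI2 and ESRP2.

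Between overexpression and vector libraries no EMT switch gene passed the test. In the fit with replicate number as a block the nearest was SNAI2, which was lower in 3 of 3 pairs of same-numbered libraries. TWIST1, ZEB1 and CDH1 were also lower in 3 of 3 pairs, VIM was higher in 3 of 3, and CDH2, ESRP1 and ESRP2 had mixed signs. log2(FPKM + 1) was fitted with limma over the 12064 genes that reached 1 FPKM in 3 libraries or more; differences on this scale understate changes of low genes. At an adjusted p under 0.05, limma called 0 of the 8 tested members and 0.0% of all genes; at an unadjusted p under 0.05 it was 0 members and 0.539% of genes. The deviations of same-numbered libraries from their group means ran together across genes. With the libraries numbered 2 apart in both groups, those numbered 1 and 3 tend to deviate together in any pairing. Overexpression 3 with vector 1 (r = 0.424) and overexpression 1 with vector 3 (r = 0.412) were positive too. The pairing of 1 with 1 and 3 with 3 is thus not established, and the p-values and intervals of the block fit rest on it. With replicate number as a block 0 members were again called, with 0.0995% of all genes called. At an unadjusted p under 0.05 the block fit held 2 members, SNAI2 and TWIST1, and 7.19% of all genes. Being lower in 3 of 3 pairs was seen for 11.9% of all genes and being higher for 16.5%. The group ranges overlapped for all 8 members; among all genes, all overexpression libraries lay above all vector libraries in 2.5% and below them in 0.845%.

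The repressors were measured as follows. SNAI2 (ENSG00000019549, chromosome 8, 48917604 to 48921740, minus strand), the zinc finger repressor also called Slug, read 47.2, 25.6 and 55.5 FPKM in overexpression replicates 1, 2 and 3, against 68.8, 32.2 and 81.9 FPKM in vector replicates 1, 2 and 3. Each overexpression library was thus below its partner, with ratios of 0.686, 0.793 and 0.678, yet overexpression replicates 1 and 3 lay above vector replicate 2, so the groups overlapped. The log2 fold change was -0.47 (SE 0.41, adjusted p = 1.0; with the replicate block SE 0.094, unadjusted p = 0.000573, adjusted p = 0.183), with a 95% interval of -0.68 to -0.26 in the block fit. The block fit called SNAI2 once both libraries numbered 2 were left out (-0.54, adjusted p = 0.0128), on 4 libraries and with 148 genes called in all; over the alternatives of the block fit its adjusted p ran from 0.0128 to 0.814. TWIST1 (ENSG00000122691, chromosome 7, 19020991 to 19117672, minus strand), a basic helix-loop-helix factor, read 4.16, 5.96 and 3.29 FPKM in overexpression replicates 1, 2 and 3, against 5.70, 6.77 and 4.41 FPKM in vector replicates 1, 2 and 3. The ratios within pairs were 0.730, 0.881 and 0.746, and the log2 fold change was -0.29 (SE 0.23, adjusted p = 1.0; block SE 0.11, unadjusted p = 0.0244, adjusted p = 0.632). ZEB1 (ENSG00000148516, chromosome 10, 31318495 to 31529814, plus strand), a zinc finger and homeodomain repressor, was the lowest tested member, at 1.05, 0.633 and 1.12 FPKM in overexpression replicates 1, 2 and 3, against 1.61, 0.785 and 1.61 FPKM in vector replicates 1, 2 and 3. Its ratios were 0.650, 0.806 and 0.695 and its log2 fold change was -0.26 (block adjusted p = 0.762). At this level the pseudocount matters, and ZEB1 had a log2 fold change of -0.45 when 0.1 was added in place of 1.

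The cadherins and vimentin differed less between the groups than the repressors did in point estimate. CDH1 (ENSG00000039068, chromosome 16, 68737225 to 68835548, plus strand) read 8.61, 20.1 and 12.8 FPKM in overexpression replicates 1, 2 and 3, against 9.20, 21.3 and 14.6 FPKM in vector replicates 1, 2 and 3. Each overexpression library lay slightly below its partner (ratios 0.936, 0.946 and 0.875; log2 fold change -0.11, block 95% interval -0.33 to 0.10). CDH2 (ENSG00000170558, chromosome 18, 27950966 to 28177446, minus strand), N-cadherin, read 14.1, 9.24 and 15.8 FPKM in overexpression replicates 1, 2 and 3, against 19.5, 8.69 and 16.2 FPKM in vector replicates 1, 2 and 3. Pair 1 gave most of its difference, with a ratio of 0.724 against 1.06 and 0.975 in pairs 2 and 3 (log2 fold change -0.13, block 95% interval -0.39 to 0.13), and without pair 1 the difference was 0.022. VIM (ENSG00000026025, chromosome 10, 17228259 to 17237593, plus strand) read 343, 163 and 293 FPKM in overexpression replicates 1, 2 and 3, against 307, 148 and 281 FPKM in vector replicates 1, 2 and 3. Its ratios of 1.12, 1.10 and 1.04 were all above 1, with a log2 fold change of 0.12 (block 95% interval -0.07 to 0.31, adjusted p = 0.785).

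The 2 epithelial splicing regulators had log2 fold changes of opposite sign, neither of which passed the test. ESRP1 (ENSG00000104413, chromosome 8, 94641074 to 94707466, plus strand) read 1.54, 3.84 and 2.45 FPKM in overexpression replicates 1, 2 and 3, against 2.27, 4.13 and 2.23 FPKM in vector replicates 1, 2 and 3. Its pair ratios were 0.679, 0.929 and 1.10, and its log2 fold change was -0.12 (block 95% interval -0.41 to 0.18). ESRP2 (ENSG00000103067, chromosome 16, 68229111 to 68238102, minus strand), its paralog, read 4.40, 3.18 and 4.02 FPKM in overexpression replicates 1, 2 and 3, against 4.42, 1.78 and 4.12 FPKM in vector replicates 1, 2 and 3. Pair 2 alone carried its positive difference, with a ratio of 1.79 against 0.996 and 0.976 in pairs 1 and 3, and without vector replicate 2 the log2 fold change was -0.12 in place of 0.19. ESRP2 shares exon sequence with NFATC3 on the other strand, which read 3.52 to 5.19 FPKM in overexpression and 4.92 to 5.89 FPKM in vector libraries. The sources do not say if counting kept the strands apart, so the value of ESRP2 is uncertain. ESRP2 also overlaps AC020978.5 and MIR6773 on its own strand, which are not among the deposited loci. The strand question holds as well for CDH1, CDH2, VIM, TWIST1, ZEB1, GRHL2 and OVOL1. Each shares exon sequence with an opposite-strand gene that is not among the deposited loci.

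**Figure D2:**
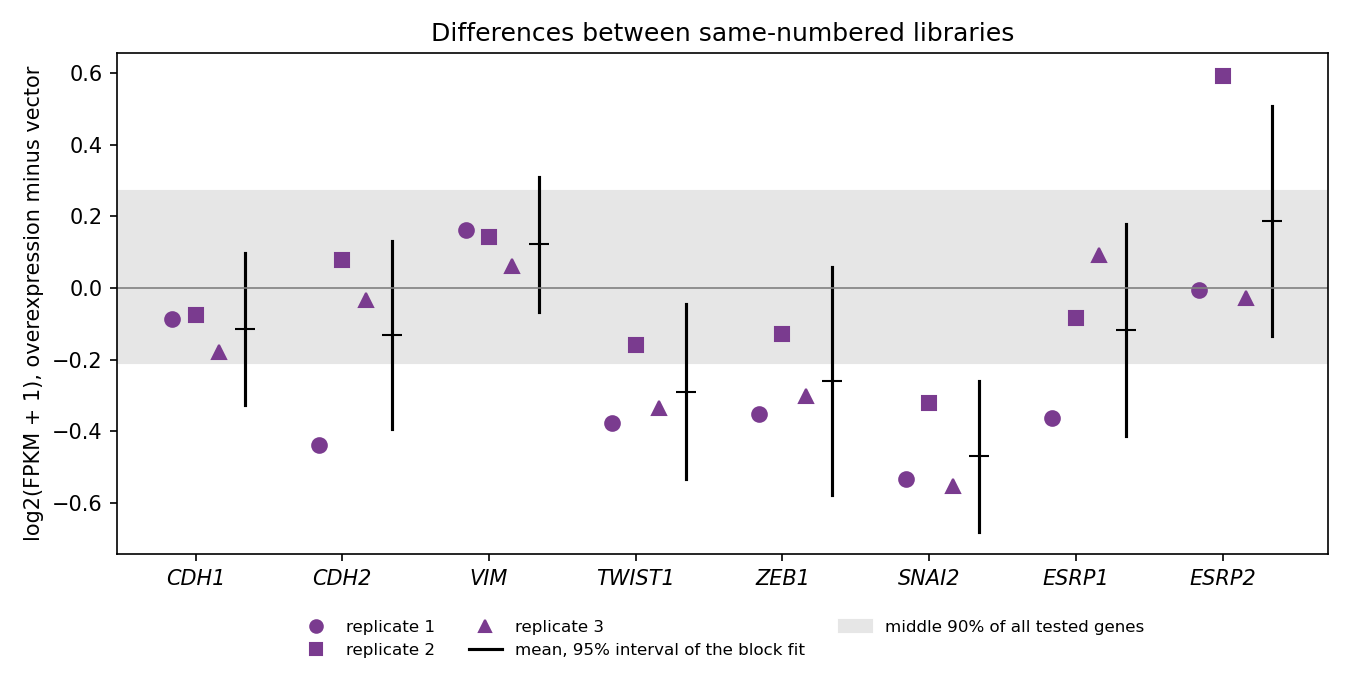
Difference in log2(FPKM + 1), overexpression minus vector (vertical axis), of the 8 tested EMT switch genes in each pair of same-numbered libraries (symbols), with the mean and its 95% interval from the block fit (black) and the middle 90% of all tested genes (grey band, -0.21 to 0.27). The 3 pairs lie below 0 for SNAI2, TWIST1, ZEB1 and CDH1 and above 0 for VIM, and the interval leaves 0 out for SNAI2 and TWIST1 before adjustment.

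Most EMT switch genes differed by replicate number, in the same direction in both groups. The libraries numbered 2 held more CDH1 and ESRP1 and less VIM, CDH2 and SNAI2 than the other 4 libraries. TWIST1 and ESRP2 went against that grouping: TWIST1, a repressor, was higher in the libraries numbered 2, and ESRP2, an epithelial regulator, was lower. These directions held under FPKM, TPM, TMM and quantile scaling. What a number stands for is not given in the labels. A moderated F-test over the 3 numbers, in the fit with group and number, called 7 of the 8 tested members, against 46.5% of all genes. ZEB1 was the exception. The members were chosen with earlier results of these data known, so these shares do not test the members as a set. Of the 8, 3 had both libraries numbered 2 above all 4 others, as had 35.9% of all genes, and 5 had both below, as had 25.7%. Among those 5, ZEB1 entered the tests only through the libraries numbered 1 and 3, where it was higher. Of the 7 called, CDH1, TWIST1 and ESRP1 had both libraries numbered 2 above all 4 others, which among all genes came with a call in 25.1%, and VIM, CDH2, SNAI2 and ESRP2 had both below, with 17.5%. The median member differed by -0.53 on the log2 scale between number 2 and the mean of numbers 1 and 3, and the median of all tested genes by 0.07.

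Among the adhesion and filament genes, the epithelial cadherin and the mesenchymal pair took opposite directions. CDH1 averaged 20.7 FPKM in the libraries numbered 2 and 11.3 FPKM in those numbered 1 and 3, a ratio of 1.83 (adjusted p = 0.000210). CDH2 averaged 8.96 FPKM in the libraries numbered 2 and 16.4 FPKM in the others (ratio 0.546, adjusted p = 0.00207), and VIM averaged 156 FPKM in the libraries numbered 2 and 306 FPKM in the others (ratio 0.509, adjusted p = 0.000114). The order of the cadherins turned with it. CDH1 stood at 2.18 times CDH2 in overexpression replicate 2 and 2.44 times in vector replicate 2, against 0.609 and 0.807 times in overexpression replicates 1 and 3 and 0.472 and 0.900 times in vector replicates 1 and 3. VIM stood at 8.12 times CDH1 in overexpression replicate 2 and 6.96 times in vector replicate 2, against 39.8 and 23.0 times in overexpression replicates 1 and 3 and 33.3 and 19.2 times in vector replicates 1 and 3. Numbers 1 and 3 differed as well for CDH1, which was lower in number 1 of both groups. With the libraries numbered 2 left out, CDH1 was the 1 member still called (adjusted p = 0.0158). That fit called 447 genes in all, against 5605 with all libraries kept. It was chosen after seeing the data and rests on replicates 1 and 3 alone.

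**Figure D3:**
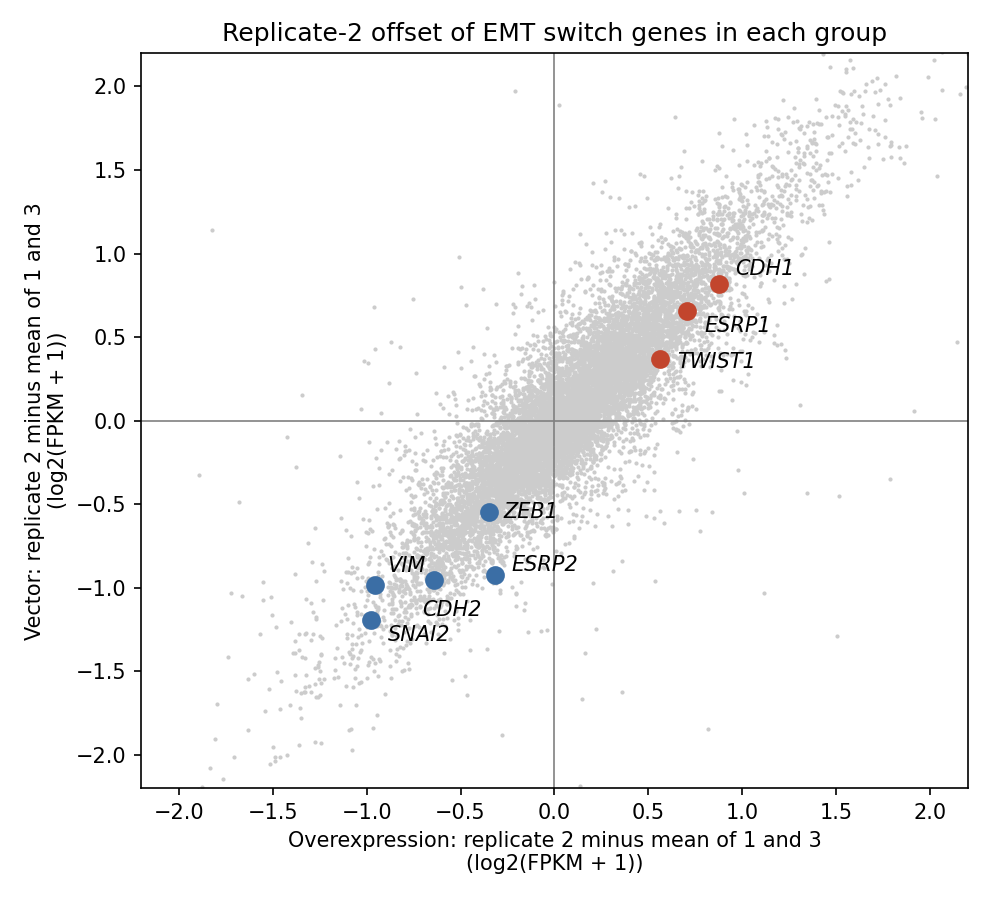
Each point is a gene; the axes give replicate 2 minus the mean of replicates 1 and 3 in log2(FPKM + 1), in overexpression libraries (horizontal) and vector libraries (vertical), with EMT switch genes colored and all tested genes in grey (92 lie outside the axes). CDH1, ESRP1 and TWIST1 lie above 0 in both groups and the other 5 below 0 in both, with ESRP2 further down in vector libraries (-0.92) than in overexpression libraries (-0.32).

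Among the repressors, SNAI2 averaged 28.9 FPKM in the libraries numbered 2 and 63.4 FPKM in the others (ratio 0.456, adjusted p = 0.000105), a log2 difference of -1.09 beside the -0.47 between the groups. TWIST1 averaged 6.36 FPKM in the libraries numbered 2 and 4.39 FPKM in the others (ratio 1.45, adjusted p = 0.0124), and this call ended without overexpression replicate 2 (adjusted p = 0.124), overexpression replicate 3 (0.0745) or vector replicate 3 (0.0526). ZEB1 averaged 0.709 FPKM in the libraries numbered 2 and 1.35 FPKM in the others (ratio 0.527, adjusted p = 0.0796). The F-test called it without a trend (adjusted p = 0.0263), with library weights (0.0493) and under quantile scaling (0.0310). ZEB1 met the filter of 1 FPKM only through the libraries numbered 1 and 3, where it was higher. Its difference by number is therefore not independent of the filter, and no conclusion is drawn from these p-values. SNAI2 and ZEB1 kept a narrow ratio across libraries, with SNAI2 at 40.4 to 49.6 times ZEB1 in overexpression libraries and 41.0 to 50.9 times in vector libraries, while SNAI2 over TWIST1 spanned 4.29 to 16.9 and 4.76 to 18.6 times.

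The splicing regulators took opposite directions. ESRP1 averaged 3.98 FPKM in the libraries numbered 2 and 2.12 FPKM in the others (ratio 1.88, adjusted p = 0.00731; 0.0794 under quantile scaling). ESRP2 averaged 2.48 FPKM in the libraries numbered 2 and 4.24 FPKM in the others (ratio 0.585, adjusted p = 0.0211), and this rested on vector replicate 2, without which the adjusted p was 0.467. ESRP2 stood at 0.830 and 0.430 times ESRP1 in overexpression and vector replicate 2, against 1.64 to 2.86 times in overexpression replicates 1 and 3 and 1.84 to 1.95 times in vector replicates 1 and 3. Without a filter on low values the calls of TWIST1, ESRP1 and ESRP2 ended (F-test adjusted p = 0.0719, 0.0785 and 0.152). Those of CDH1, VIM and SNAI2 held (0.0214, 0.0214 and 0.0213), and that of CDH2 lay just under the threshold (0.0492). OVOL1, in that fit, was not called for number (adjusted p = 0.410).

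VIM and CDH2 were lower in the libraries numbered 2, and ZEB1, which missed the threshold there, is itself one of the repressors that act against CDH1. The bases upstream of their starts are shown because the zinc finger repressors SNAI2 and ZEB1 bind the motif CACCTG. This form of the E-box reads CAGGTG when it lies on the other strand. Promoter windows from RefSeq (GRCh38.p14) matched 3 of the 10 members; the 250 bases before the most upstream start in the table are given 5′ to 3′ on the gene's strand, with the motif in capitals. They lie at chr10:17227991-17228240 (VIM, plus strand), chr18:28177131-28177380 (CDH2, minus strand) and chr10:31318167-31318416 (ZEB1, plus strand).
VIM: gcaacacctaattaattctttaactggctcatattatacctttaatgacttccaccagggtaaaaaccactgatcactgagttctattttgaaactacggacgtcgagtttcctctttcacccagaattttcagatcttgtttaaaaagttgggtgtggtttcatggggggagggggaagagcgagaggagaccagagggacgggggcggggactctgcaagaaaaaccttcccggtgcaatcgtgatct
CDH2: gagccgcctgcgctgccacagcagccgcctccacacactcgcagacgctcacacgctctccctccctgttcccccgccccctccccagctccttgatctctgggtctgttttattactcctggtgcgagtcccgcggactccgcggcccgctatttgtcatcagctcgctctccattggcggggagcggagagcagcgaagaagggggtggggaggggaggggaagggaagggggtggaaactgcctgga
ZEB1: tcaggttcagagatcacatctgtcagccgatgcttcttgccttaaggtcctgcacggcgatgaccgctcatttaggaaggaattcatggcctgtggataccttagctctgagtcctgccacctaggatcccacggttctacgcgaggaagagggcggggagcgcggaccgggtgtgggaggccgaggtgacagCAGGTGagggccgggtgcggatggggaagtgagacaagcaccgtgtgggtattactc
The window of ZEB1 holds 1 motif, which begins 57 bases before the start, and a further start of ZEB1 among its 7 windows has 2, beginning 242 and 85 bases before it. No match lies in the windows shown for VIM and CDH2, which says only that these letters are not there. Of all 35116 windows of this length, 17.5% hold the motif at least once.

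Other genes of the program, read from lists of related function, gave no call between the groups. For replicate number, 44 of the 76 tested genes of 7 lists were called, 57.9% against 46.5% of all genes. The lists were chosen with earlier results of these data known, so this comparison does not test them. A call with both libraries numbered 2 above the others came in 25.1% of all genes and with both below in 17.5%. The counts of each list below stand beside these shares. Over the 7 lists, 0 genes were called between overexpression and vector in either limma fit. At an unadjusted p under 0.05 the group-only fit held 0 of their genes and the block fit 8, which is 10.5% against 7.19% of all genes. Of these 8, 4 were mesenchymal effectors, of mixed direction. NT5E (log2 fold change 0.50) and ITGA5 (0.27) were higher in overexpression, and S100A4 (-0.39) and FBN1 (-0.24) were lower. Among these 7 lists, epithelial identity factors had the highest median by number. Of 7 tested of 12, 4 were called, and all 4 had both libraries numbered 2 above the others, with a list median of 1.06. KLF4, a zinc finger factor of differentiated epithelia, read 78.4 and 86.0 FPKM in overexpression and vector replicate 2, against 33.6 and 42.4 FPKM in overexpression replicates 1 and 3 and 32.6 and 44.2 FPKM in vector replicates 1 and 3. KLF5, a related factor, gave a ratio of 1.20 between number 2 and the others and missed the threshold (adjusted p = 0.0532). ELF3, an epithelial ETS factor singled out after its values were seen, had a ratio of 7.13.

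Cadherin partners and epithelial surface genes mostly had the direction of CDH1. Of the 10 cadherin-catenin partners, 7 were called for number, 6 of them with both libraries numbered 2 above the others, and the list median was 0.41. JUP, or plakoglobin, which links cadherins to the cytoskeleton, read 176 and 184 FPKM in overexpression and vector replicate 2, against 106 and 123 FPKM in overexpression replicates 1 and 3 and 90.4 and 126 FPKM in vector replicates 1 and 3. PLEKHA7, an adherens junction protein, had a ratio of 2.02, while CTNNA1, the alpha-catenin that couples cadherins to actin, had a ratio of 1.06 and no call (adjusted p = 0.594). Of 14 tested of 16 surface and trafficking genes, 11 were called, 9 with number 2 above and 1 below. SPINT2, a protease inhibitor, had a ratio of 1.55 and was called. EPCAM, an adhesion molecule of epithelia, was not called (adjusted p = 0.798), at 82.5, 83.0 and 88.5 FPKM in overexpression replicates 1, 2 and 3, and 82.2, 76.3 and 80.1 FPKM in vector replicates 1, 2 and 3.

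Mesenchymal genes did not follow VIM as a list. Of 17 tested of 26, 10 were called for number, 3 with both libraries numbered 2 below the others, near the share of all genes, and 7 with both above. NT5E, the ecto-nucleotidase CD73, was lower in the libraries numbered 2 (ratio 0.524), and it had the largest log2 fold change between the groups in this list (0.50, block unadjusted p = 0.00222, adjusted p = 0.320; higher in 3 of 3 pairs). FN1, or fibronectin, was abundant and not called (adjusted p = 0.720), at 465 to 562 FPKM in overexpression and 475 to 530 FPKM in vector libraries. The 7 genes with both libraries numbered 2 above the others were S100A4, MMP2, FBN1, ACTA2, COL1A1, COL5A1 and TPM2, named because of their direction after their values were seen.

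Other EMT transcription factors were mixed. Of 8 tested of 14, 4 were called for number, near the 46.5% of all genes, 2 with number 2 below and 1 above. TCF3, an E protein, had a ratio of 0.914 (adjusted p = 0.321). SOX4 had a ratio of 0.624 and was called (adjusted p = 0.0169) although its ranges overlapped, and SOX9, a factor of progenitor cells, had a ratio of 0.283 (adjusted p = 0.000652). SNAI1, the paralog of SNAI2, added after its values were seen, had a ratio of 0.439 (adjusted p = 0.00488). Of the 9 tested splicing factors listed as acting around exons that the ESRP proteins regulate, 5 were called, 2 above and 3 below. HNRNPM, which acts against ESRP1 at such exons, had a ratio of 0.586 and PTBP1 0.638, while RBM47 had 1.90. Of 11 corepressors that SNAI and ZEB factors recruit, 3 were called; the demethylase KDM1A had a ratio of 2.14 and the deacetylase HDAC2 0.649, while HDAC1, the other deacetylase, had 1.02 and no call (adjusted p = 0.983).

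**Figure D4:**
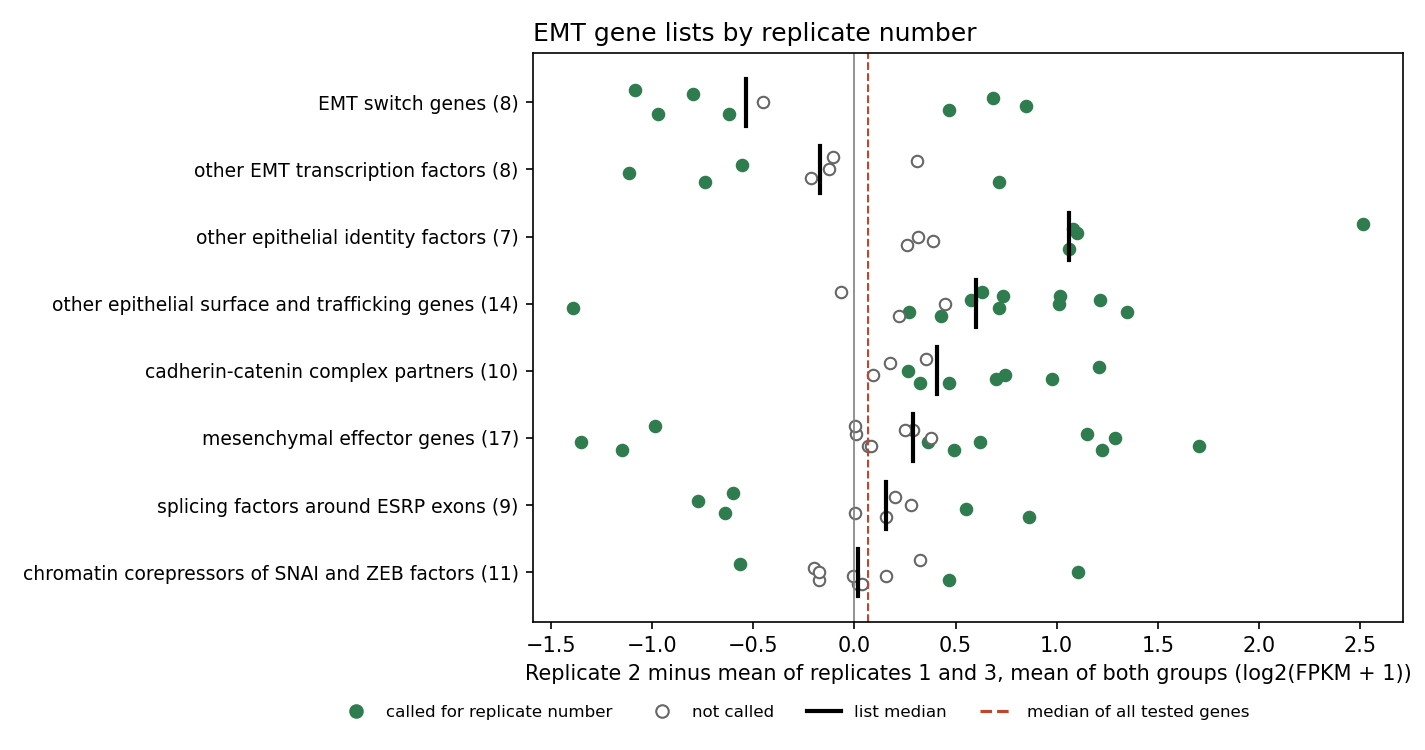
Replicate 2 minus the mean of replicates 1 and 3 in log2(FPKM + 1), averaged over both groups (horizontal axis), for tested genes of 8 gene lists (rows, number of genes in brackets); filled points were called for replicate number, black bars are list medians and the dashed line is the median of all tested genes (0.07). Epithelial identity factors lie furthest right (median 1.06), EMT switch genes fall on both sides of 0, and mesenchymal effector genes also fall on both sides (median 0.29).

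The label of an epithelial tumor was met in part by its markers, and markers of other cell types were low. KRT8 and KRT18, keratins of simple epithelia, read 877 to 1123 and 574 to 679 FPKM in overexpression libraries and 741 to 937 and 534 to 644 FPKM in vector libraries, and KRT7 was lower in the libraries numbered 2 (ratio 0.524). KRT19 was low, at 0.376 to 0.473 FPKM in overexpression and 0.243 to 1.10 FPKM in vector libraries. MUC1 went against KRT7 and was higher in the libraries numbered 2 (ratio 7.87, F-test adjusted p = 0.000137). Of 9 markers of adenoid cystic carcinoma and myoepithelial cells, KIT, a receptor often present in this tumor, is listed at 0 in all libraries, SOX10 and CNN1 stayed under 1 FPKM, and KRT5 and KRT14 were 3.29 and 2.23 times as high in the libraries numbered 2. As for GRHL2, whether a 0 is a true absence or a failed estimate is unknown, here and below. MYB read 0.688 to 1.21 FPKM in overexpression and 0.705 to 1.20 FPKM in vector libraries. NFIB read 0.983 to 1.78 FPKM and 0.932 to 2.44 FPKM in the same order. Of 6 tested genes of this list, 5 were called for number (list median 1.09). All 5 had both libraries numbered 2 above the others, which came with a call in 25.1% of all genes. In bulk RNA, fewer cells of a type and less RNA per cell cannot be told apart. Of 7 fibroblast markers, 6 stayed under 1 FPKM in all libraries, with COL1A2 and PDGFRA listed at 0; the summed level was 8.90 and 11.3 FPKM in overexpression and vector replicate 2, against 3.07 to 4.22 FPKM in overexpression replicates 1 and 3 and 4.05 to 4.71 FPKM in vector replicates 1 and 3, nearly all of it COL1A1. LUM, a proteoglycan of fibroblasts, did not exceed 0.117 FPKM. The 5 endothelial markers summed to 1.39 and 1.71 FPKM in overexpression and vector replicate 2, against 0.212 to 0.303 FPKM in overexpression replicates 1 and 3 and 0.101 to 0.327 FPKM in vector replicates 1 and 3; PECAM1 made up most of the sum in the libraries numbered 2 alone, with KDR listed at 0 and VWF under 1 FPKM. The 5 leukocyte markers, among them CD14 and ITGAM, summed to 0.356 to 0.979 FPKM in overexpression libraries and 0.425 to 0.723 FPKM in vector libraries, with PTPRC and CD3E listed at 0. The part of these markers in the differences of VIM and CDH2 was not tested.

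The genes whose pattern over the 6 libraries was most like that of CDH1 were ZNF621, HECTD4 and SMARCC2 (Pearson r of log2 values 0.999, 0.998 and 0.998), out of 8257 genes with a mean of at least 5 FPKM. For VIM they were DDX27, ZNF707 and MED10 (r = 0.999, 0.999 and 0.998). These values describe 6 libraries of which those numbered 2 stand apart, and 538 genes exceeded an r of 0.95 with CDH1 and 840 with VIM.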

How the data were processed

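Messenger RNA of SACC-83 cells was sequenced in 6 libraries, 3 with circMYBL1 overexpression and 3 with an empty vector, grouped by their titles. Per the labels' protocols, TRIzol served for extraction and a NEBNext Ultra kit for library preparation from purified mRNA. Per the submitters' processing notes, HISAT2 and GRCh38 were used. How fragments were counted, on which annotation, with what strand setting and in which tool versions is not given in the sources used here. FPKM is the unit of the values the authors deposited, scaled to library totals and gene length. Among 599 loci with values between 0 and 0.1 FPKM in overexpression replicates 1 and 2, at most 8 shared one ratio, so no whole-read steps were recovered and depth and counting error are unknown.

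The 12064 genes that reached 1 FPKM in 3 libraries or more were tested on log2(FPKM + 1) with limma 3.58.1 in R 4.3.3 (variances moderated by eBayes along a mean trend; 2-sided p adjusted by Benjamini-Hochberg over all tested genes; threshold 0.05), with group as the only term. Deviations of same-numbered libraries from their group means correlated at 0.725, 0.881 and 0.529 for numbers 1, 2 and 3, against -0.818 to 0.424 for libraries of different number, of which overexpression 3 with vector 1 (0.424) and overexpression 1 with vector 3 (0.412) were positive, so a second fit took replicate number as a block; that pairing rests on these correlations, not on the labels. Because deviations were taken from group means and the libraries numbered 2 stood apart, positive correlations among numbers 1 and 3 do not establish that pairing. The moderated F-test of replicate number comes from that second fit. The code was tested on simulated data. With 3 libraries against 3, the smallest p of an exact permutation test is 0.1, so none was used. Named genes were all members, per list the 2 most abundant genes and the tested gene of largest absolute log2 fold change, and the 3 genes most like CDH1 and VIM. Results of some genes named by this rule are not reported here. Members and lists were chosen with earlier results of these data known. Gene positions were read from GENCODE release 29 (GRCh38). Alternatives were pseudocounts, filters, TPM, trimmed mean (TMM) factors, quantile scaling, library weights, no trend, the block, and fits without single libraries or pairs.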

Additional observations from a re-analysis of the deposited data

How the results depend on the processing

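Between overexpression and vector, the count of genes called by limma was 0 in the group-only fit and stayed 0 under both other pseudocounts, both other filters, TPM, TMM factors, quantile scaling and no trend; it was 346 with library weights, whose estimation stopped before convergence, 12 with the replicate block and 0 to 1 with 1 library left out. With the block and a pair left out it was 14 without replicate 1, 148 without replicate 2 and 22 without replicate 3; these fits keep 4 libraries. No EMT switch gene was called in any of them except 1, SNAI2 (-0.54), in the block fit without replicate 2, so the count ranged from 0 to 1. Of 149 alternative log2 fold changes of members, 14 turned sign: with library weights ESRP1 gave 0.084 and ESRP2 -0.030, and in the block fit CDH2 gave 0.022 and ESRP1 0.0042 without replicate 1, and ESRP2 gave -0.016 without replicate 2. With 1 library left out, CDH1 ranged from -0.41 to 0.16, VIM from -0.21 to 0.44, CDH2 from -0.45 to 0.091, ESRP1 from -0.35 to 0.11 and ESRP2 from -0.12 to 0.36, while SNAI2 (-0.87 to -0.15), TWIST1 (-0.48 to -0.13) and ZEB1 (-0.44 to -0.14) stayed negative. Genes called for replicate number were 5605, against 3389 without a filter on low values, where 4 members were called; with 1 library left out they ranged from 3663 (without vector replicate 2) to 6174 genes and from 6 to 7 members. Without replicate 2 of both groups, a setting chosen after seeing the data, they were 447 genes and 1 member. TPM moved the median difference of all genes between number 2 and the others to 0.15 in overexpression and 0.14 in vector libraries, against 0.08 and 0.06 in FPKM. The causes of these changes were not tested; depth is unknown, so it is not known which low genes it limits.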
